A study of Mus musculus with 4 samples.

Results

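The comparison described here is the loss of *Cd300a* in SiglecF hi neutrophils of the mouse heart on day 3 after myocardial ischemia and reperfusion (MI/R). It uses 2 of the 4 RNA-Seq libraries of the study, 1 of WT and 1 of *Cd300a-/-* SiglecF hi neutrophils, chosen by genotype and sorting gate and not by a measured value. Genes were included when the mean of the 2 libraries was over 10 TPM (transcripts per 1000000), which 7116 of 25655 genes met. All mice were male and 8 to 12 weeks old by the methods, which name purchased C57BL/6J mice and give the *Cd300a-/-* line a C57BL/6 background without a substrain. The *Cd300a-/-* mice carry the deletion in the germline and so in every cell type, and in both genotypes a coronary artery was occluded and then reopened. The perfused hearts were digested with collagenase II and DNase I, and CD45.2+CD11b+Ly6G+ cells were sorted as SiglecF hi or SiglecF lo. Each library was made from the pooled cells of 8 mice, so single mice are not resolved, and with 1 library a group no difference has a replicate and no P value is given. Counts on genes totalled 19278243 in the WT and 17632989 in the *Cd300a-/-* SiglecF hi library. The SiglecF lo libraries, with 9631901 counts in WT and 10988619 in *Cd300a-/-*, are given beside them where they help to place a gene.

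CD300a is an inhibitory receptor of myeloid cells that binds phosphatidylserine and phosphatidylethanolamine, lipids exposed on dying cells. Its cytoplasmic tail carries immunoreceptor tyrosine-based inhibitory motifs, which recruit the phosphatases SHP-1 and SHP-2 and so dampen signals of activating receptors. SiglecF hi neutrophils accumulate in injured tissue, whereas mRNAs for granule proteins are made mainly while neutrophils mature in the bone marrow and are carried at falling levels by cells in the blood.

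*Cd300a* (ENSMUSG00000034652), on chromosome 11 from 114780867 to 114795480 of GRCm39, had 6640 counts in WT and 27 counts in *Cd300a-/-* SiglecF hi neutrophils, which is 163 and 0.740 TPM. Against that loss, 6 of 11 secondary granule genes were higher in the *Cd300a-/-* library, and 4 of 9 with both libraries over 10 TPM. Of 23 genes of circulating neutrophils, 5 were higher. Among the largest rises were *Ngp*, *Camp*, *Ly6g*, *Cd177* and *Ltf*, with *Camp* under 10 TPM in WT. Of 22 fibroblast genes 8 were lower, collagens among them, and 14 did not pass. Abundant genes that were lower included *Spp1*, *Fabp5* and *Lgals1*. Differences are given as log2((TPM + 1) ratio), with *Cd300a-/-* over WT, and a gene is called higher or lower when that ratio is past 0.5 in size. By this measure 507 of 7116 genes (7.12%) were past the threshold, 244 higher (3.43%) and 263 lower (3.7%), and 45 genes (0.632%) were past 1. The count of any gene list is to be read beside these shares. The median ratio of all genes tested was 0.04. Each ratio has a 95% interval from the counts of both libraries, printed in brackets after it. Because reads that carry no molecular identifier do not stand for independent molecules, intervals and floors cover counting error only and say nothing of the spread between pools of mice. The intervals of all 507 genes excluded 0, and those of 180 lay wholly beyond 0.5.

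Weakly expressed genes supplied most of the calls. Of 2091 genes with a mean TPM from 10 to 20, 13.2% were past the threshold, against 2.56% of 156 genes over 1000. A gene that is at or under 10 TPM in 1 library passes the filter only through the other library and so had to differ. There were 322 such genes, of which 140 were past 0.5 (43.5%), whereas 367 of the 6794 genes over 10 TPM in both libraries were past it (5.4%). At the edge of the filter, *Sirt6*, a nuclear deacetylase, was just inside with 10.5 TPM in WT against 9.46 TPM in *Cd300a-/-* SiglecF hi neutrophils. *Csta3*, a stefin A gene, was just outside with 10.5 TPM in WT against 9.53 TPM in *Cd300a-/-*.

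**Figure D1:**
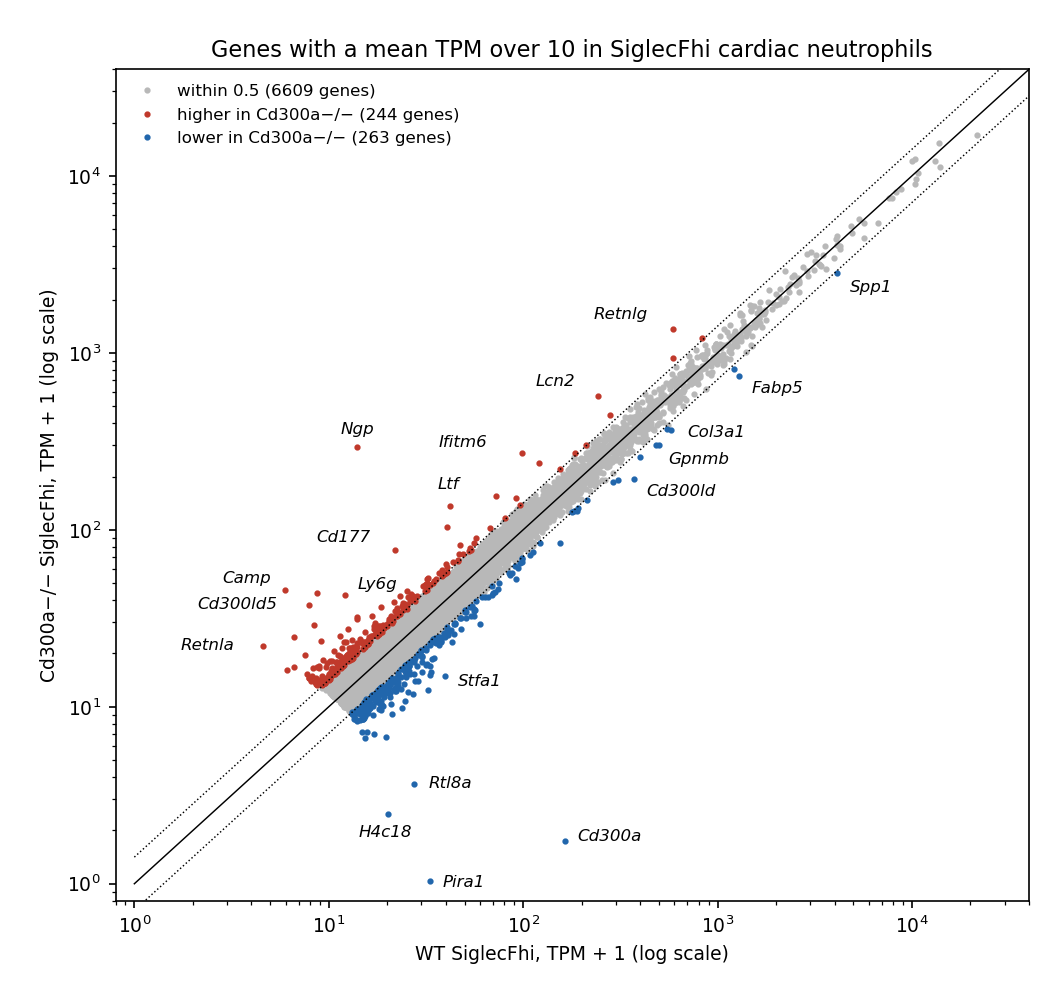
Each point is 1 of 7116 genes, with TPM + 1 in WT SiglecF hi neutrophils on the horizontal and in *Cd300a-/-* SiglecF hi neutrophils on the vertical axis, both on log scales; the solid line marks equal values and the dotted lines a log2 ratio of 0.5 in size. *Ngp* lies far above the lines, *Cd300a* and *Pira1* far below, and 244 genes are above and 263 below them.

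Before the results, the cells were checked against markers of their labels. *Siglecf* was at 354 TPM in WT against 405 TPM in *Cd300a-/-* SiglecF hi neutrophils, beside 11.3 and 15.3 TPM in the SiglecF lo libraries. The gate thus separated the subsets at the mRNA level in both genotypes. The 9 neutrophil markers summed to 31262 TPM in WT against 36711 TPM in *Cd300a-/-* SiglecF hi cells, and to 160120 and 208115 TPM in the SiglecF lo libraries. The 6 markers of SiglecF hi neutrophils, which include *Icam1*, *Tnf* and *Cd274*, summed to 6016 TPM (WT) and 7075 TPM (*Cd300a-/-*), with 2037 and 1589 TPM in the SiglecF lo libraries. None of these 6 was past 0.5. *Csf3r*, the G-CSF receptor, was at 1069 TPM in WT against 1109 TPM in *Cd300a-/-*, and *Cxcr2*, the receptor for CXCL1 and CXCL2, at 376 and 372 TPM. Of the 9 neutrophil markers 2 were past 0.5, *Ly6g* and *Retnlg*, and the other markers of neutrophils and of the gate stayed within it. Markers of other cell types were present as well. In SiglecF hi cells the 8 macrophage markers summed to 7343 TPM (WT) and 6598 TPM (*Cd300a-/-*), and the 6 fibroblast markers to 1999.7 and 1386 TPM.

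Secondary granule genes gave the 2 largest rises of the genes that passed the filter, those of *Ngp* and *Camp*. Of 12 genes written in this list 11 were tested, and 6 were higher (*Ngp*, *Camp*, *Cd177*, *Ltf*, *Itgb2l* and *Lcn2*) and none lower, with a median ratio of 1.23 beside 0.04 for all genes. *Camp* and *Itgb2l* passed the filter with WT at or under 10 TPM; with both libraries over 10 TPM, 4 of 9 were higher and the median was 0.44. *Ngp*, which encodes neutrophilic granule protein, was at 12.96 TPM in WT against 293 TPM in *Cd300a-/-* SiglecF hi cells, and at 1177 and 3096 TPM in WT and *Cd300a-/-* SiglecF lo neutrophils. Its ratio of 4.40 (4.17 to 4.63) was the highest of all genes tested, and both SiglecF lo libraries were still above the *Cd300a-/-* SiglecF hi library. *Camp*, the gene of the antimicrobial peptide cathelicidin, had 33 counts in WT and 267 counts in *Cd300a-/-*, which is 4.96 and 44.8 TPM, with 298 and 339 TPM in the SiglecF lo libraries. The *Camp* ratio was 2.94 (2.49 to 3.41), and it was 0.19 (0.08 to 0.30) between the SiglecF lo libraries, so the WT SiglecF hi library was the lowest of the 4 and the SiglecF lo libraries stood close together. In bulk RNA, a different number of cells of a type and a different amount of RNA per cell cannot be told apart.

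*Ltf* encodes the iron-binding lactotransferrin, and *Lcn2* encodes lipocalin-2, which captures bacterial siderophores. *Ltf* was at 41.2 TPM in WT against 136 TPM in *Cd300a-/-* SiglecF hi cells, and at 279 and 579.7 TPM in the SiglecF lo libraries, a ratio of 1.70 (1.60 to 1.80) in SiglecF hi neutrophils. *Lcn2* was at 242 TPM in WT against 568 TPM in *Cd300a-/-*, with 2385 and 6124 TPM in the SiglecF lo libraries, a ratio of 1.23 (1.16 to 1.30). For both genes the order of the libraries was the same, from WT SiglecF hi as the lowest through *Cd300a-/-* SiglecF hi and WT SiglecF lo to *Cd300a-/-* SiglecF lo as the highest. *Cd177*, a surface glycoprotein of neutrophils that binds PECAM-1, followed that order with 20.99 TPM in WT against 75.9 TPM in *Cd300a-/-*, and 143 and 741 TPM in the SiglecF lo libraries (1.81, 1.67 to 1.95). *Itgb2l*, a relative of the β2 integrin gene, was at 5.62 TPM in WT against 15.8 TPM in *Cd300a-/-*, with 13.9 and 68.8 TPM in SiglecF lo neutrophils (1.35, 1.10 to 1.60). Its WT SiglecF lo value lay under the *Cd300a-/-* SiglecF hi value, so for this gene the subsets overlapped. The most abundant member, *Hp* (haptoglobin), stayed within the threshold at 586 TPM in WT against 674 TPM in *Cd300a-/-* (0.20, 0.15 to 0.25). *Ceacam10*, an adhesion molecule gene outside the list, was at 5.65 TPM in WT against 23.7 TPM in *Cd300a-/-* and at 75.7 and 154 TPM in SiglecF lo neutrophils (1.89, 1.50 to 2.29), and it passed the filter only through the *Cd300a-/-* library.

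**Figure D2:**
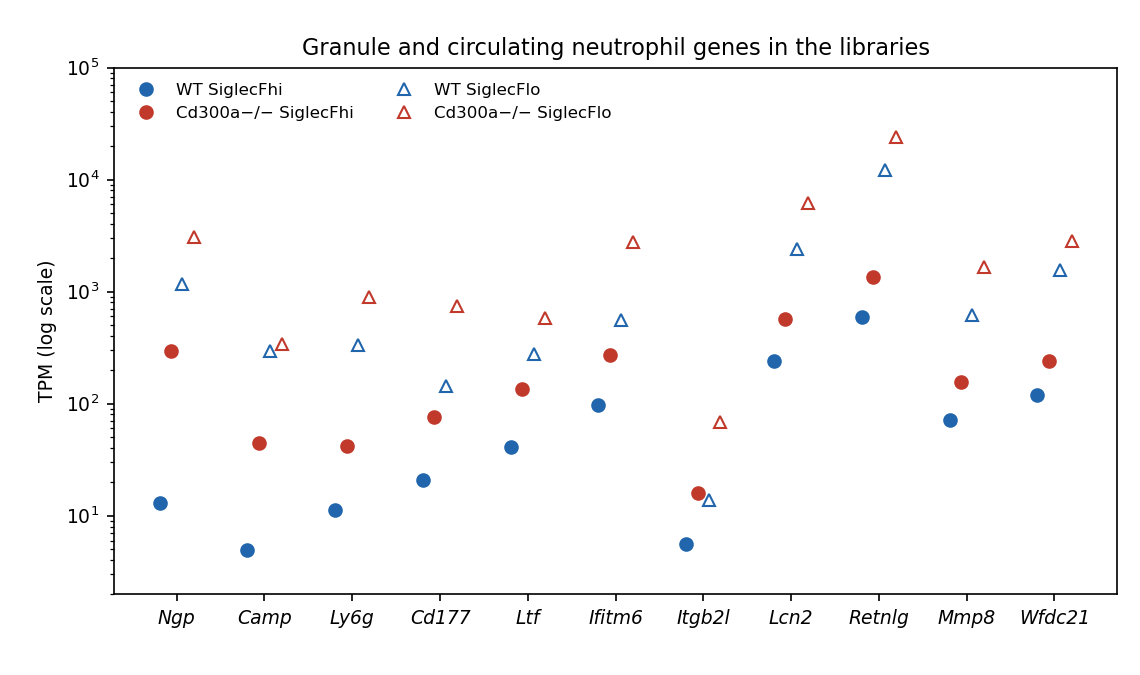
TPM on a log scale for 11 granule and circulating neutrophil genes, with filled circles for the SiglecF hi and open triangles for the SiglecF lo libraries, WT in blue and *Cd300a-/-* in red, and 1 library per symbol. The 11 genes were picked among those called higher in SiglecF hi neutrophils. By that choice the *Cd300a-/-* SiglecF hi library lies above WT for each of them (*Ngp* 293 against 12.96 TPM). List members that did not pass, such as *Hp* (0.20) and *S100a9* (0.16), are not drawn. Both SiglecF lo libraries lie above both SiglecF hi libraries for all but *Itgb2l*.

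Because 6 of 11 secondary granule genes were higher, promoters of the list were read from RefSeq (build GRCm38.p6) as windows of 300 bases, from 250 before to 50 after the start, 5′ to 3′ on the strand of the gene. The motif TTGCNNAA, a form bound by C/EBP factors such as C/EBPε, which drives secondary granule genes in maturing neutrophils, was searched on both strands. It was in 3 of 10 secondary granule promoters in the table, those of *Ngp*, *Ltf* and *Lcn2*. Of the promoters of tested genes 8.69% held it, against 13.4% of the higher and 12.7% of the lower genes, and 10.8% of all 27025 promoters. The motif was therefore similarly frequent among higher and lower genes. Of 532 matches in tested promoters, 1 shared a base with a match of another motif searched. The windows of *Ngp* (chr9:110419558-110419857, plus strand), *Ltf* (chr9:111019042-111019341, plus strand) and *Lcn2* (chr2:32387690-32387989, minus strand) are shown as genes that rose, and that of *Camp* (chr9:109849407-109849706, minus strand) as a gene that rose without these letters in the window. Capitals mark the matches of TTGCNNAA on either strand, and a match is a description of letters and not a shown binding site.
Ngp: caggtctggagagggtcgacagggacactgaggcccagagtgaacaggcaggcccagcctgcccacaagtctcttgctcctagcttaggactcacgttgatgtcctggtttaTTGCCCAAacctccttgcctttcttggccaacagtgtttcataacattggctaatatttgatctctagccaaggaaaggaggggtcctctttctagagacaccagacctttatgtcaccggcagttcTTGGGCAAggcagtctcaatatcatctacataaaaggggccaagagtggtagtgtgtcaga
Ltf: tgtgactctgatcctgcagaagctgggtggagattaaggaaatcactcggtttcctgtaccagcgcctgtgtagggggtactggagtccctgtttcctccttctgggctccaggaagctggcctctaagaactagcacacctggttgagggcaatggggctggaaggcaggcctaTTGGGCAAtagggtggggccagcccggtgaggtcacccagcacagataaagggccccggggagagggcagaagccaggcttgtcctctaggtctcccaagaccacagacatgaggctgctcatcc
Lcn2: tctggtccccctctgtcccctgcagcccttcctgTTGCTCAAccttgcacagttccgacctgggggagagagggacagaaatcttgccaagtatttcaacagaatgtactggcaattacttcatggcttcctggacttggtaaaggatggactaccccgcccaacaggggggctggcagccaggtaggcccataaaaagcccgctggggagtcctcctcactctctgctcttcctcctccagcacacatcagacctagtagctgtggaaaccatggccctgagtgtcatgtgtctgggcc
Camp: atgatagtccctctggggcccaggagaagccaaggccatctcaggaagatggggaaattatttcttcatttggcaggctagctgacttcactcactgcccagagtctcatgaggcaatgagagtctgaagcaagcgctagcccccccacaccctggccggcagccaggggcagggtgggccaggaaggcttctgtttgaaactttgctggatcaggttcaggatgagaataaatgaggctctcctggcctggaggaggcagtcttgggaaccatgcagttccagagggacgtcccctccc

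Genes of circulating neutrophils, which cells lose as they settle in tissue, were higher in 5 of 23 tested and lower in none, with a median of 0.16. The 5 were *Ly6g*, *Ifitm6*, *Retnlg*, *Wfdc21* and *Padi4*, and all 23 were over 10 TPM in both libraries. *Ly6g*, the gene of the antigen that the cells were sorted on, had 92 counts in WT and 310 in *Cd300a-/-*, which is 11.1 and 41.9 TPM, beside 330.4 and 889 TPM in SiglecF lo neutrophils. Its ratio was 1.82 (1.51 to 2.15), and both SiglecF hi libraries were far under both SiglecF lo libraries; *Ly6g* has close relatives in its gene family, so reads may be shared among them. *Retnlg*, which encodes a resistin-like protein of neutrophils, was at 590.1 TPM in WT against 1360.5 TPM in *Cd300a-/-*, beside 12110.1 and 24002 TPM in SiglecF lo neutrophils (1.20, 1.14 to 1.27). *Ifitm6*, of the interferon-induced transmembrane family, was at 97.96 TPM in WT against 271 TPM in *Cd300a-/-*, beside 553 and 2771 TPM (1.46, 1.34 to 1.58). *Wfdc21*, a small secreted protein gene, was at 119 TPM in WT against 238 TPM in *Cd300a-/-*, beside 1571 and 2842 TPM (0.99, 0.83 to 1.16). All 3 were highest in the *Cd300a-/-* SiglecF lo library. *Padi4*, the enzyme that citrullinates histones when neutrophils release chromatin, was at 21.7 TPM in WT against 33.5 TPM in *Cd300a-/-* (0.61, 0.43 to 0.78) and was chosen after its values were seen. *S100a9*, a calcium-binding alarmin, was the most abundant gene of the SiglecF lo libraries and, by the mean of both SiglecF hi libraries, of the list. It did not pass, with 13719 TPM in WT against 15355 TPM in *Cd300a-/-* SiglecF hi cells (0.16, 0.15 to 0.18).

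The higher and lower genes were placed by whether both SiglecF lo libraries lay above, or below, both SiglecF hi libraries. This placing is not independent of the call, because it uses the same SiglecF hi values. A raised *Cd300a-/-* SiglecF hi value makes it harder for both SiglecF lo libraries to lie above. The shares therefore cannot decide how far genes that stand higher in SiglecF lo neutrophils make up the rises. Both SiglecF lo libraries were above both SiglecF hi libraries for 28 of the 244 higher genes (11.5%) and for 10 of the 263 lower genes (3.8%), against 8.39% of all genes tested. Both were below for 116 of the higher (47.5%) and 155 of the lower genes (58.9%), against 71.3% of all. Whether cells from the border of the gate had a part in the rises of granule and circulating neutrophil genes was not tested.

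Tertiary granule genes, whose products are released as neutrophils leave vessels, were higher in 2 of 8 tested. *Mmp8*, the neutrophil collagenase, is stored in granules and was at 71.8 TPM in WT against 155 TPM in *Cd300a-/-*, with 619 and 1647 TPM in SiglecF lo neutrophils (1.10, 1.01 to 1.19). *Mmp25*, a membrane-anchored protease, was at 14.9 TPM in WT against 21.7 TPM in *Cd300a-/-* (0.52, 0.38 to 0.65), and it fell under 0.5 with TMM, DESeq2, median or library-total scaling. *Mmp9*, the gelatinase and most abundant of the list, stayed within at 1297 TPM in WT against 1684 TPM in *Cd300a-/-* (0.38, 0.36 to 0.40). Of primary granule genes, made earliest in maturation, 2 of 7 were tested and none passed, the more abundant being the protease activator *Ctsc* at 338 TPM in WT against 303 TPM in *Cd300a-/-*. Of the other 5, counts in WT and *Cd300a-/-* SiglecF hi neutrophils were 0 and 29 for *Mpo*, 0 and 14 for *Ctsg*, 2 and 0 for *Elane*, 1 and 0 for *Ms4a3*, and 0 in both for *Bpi*.

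The stefin A genes encode cytosolic inhibitors of cysteine proteases, are abundant in circulating neutrophils and lie in a cluster of near-identical copies, so their values are uncertain one by one. Of 5 tested 1 was lower and none higher, with a median of -0.29, and the intervals of 3 of the 5 included 0. *Stfa1* was at 38.7 TPM in WT against 13.99 TPM in *Cd300a-/-*, beside 223 and 170.5 TPM in SiglecF lo neutrophils (-1.40, -1.77 to -1.05). The most abundant copy, *Stfa2l1*, was at 754 TPM in WT against 581 TPM in *Cd300a-/-*, beside 3562 and 2279 TPM (-0.38, -0.46 to -0.29). *Stfa3*, outside the filter and chosen after its values were seen, had 0 counts in WT and 30 in *Cd300a-/-* SiglecF hi neutrophils. Its ratio of 3.36 (2.23 to 3.83) takes WT as 0 TPM, so it depends on the pseudocount of 1 TPM and is not exact. *Prok2*, also chosen after its values were seen, encodes a secreted chemoattractant and lay under the filter, with 3.33 TPM in WT against 16.1 TPM in *Cd300a-/-*, with 19.2 and 222 TPM in SiglecF lo neutrophils (1.99, 1.64 to 2.33).

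ITIM phosphatases are recruited by CD300a and oppose proximal kinases of activating receptors. None of 16 such phosphatases, kinases and adaptors passed, beside 7.12% of all genes, with a median of 0.12, and the most abundant, the activating adaptor *Tyrobp*, was at 4928 TPM in WT against 4742 TPM in *Cd300a-/-* (-0.06, -0.08 to -0.03). Among 15 other inhibitory receptors tested, 1 was higher. That was *Cd72*, better known as a coreceptor of B cells, at 30.3 TPM in WT against 47.8 TPM in *Cd300a-/-* (0.64, 0.51 to 0.77). *Lilr4b*, the most abundant, was at 437 TPM in WT against 552 TPM in *Cd300a-/-* (0.34, 0.29 to 0.38). Of 6 Fc gamma receptor genes, 15 chemoattractant receptors, 22 myeloid cytokine receptors and 23 pattern recognition receptors none passed. *Siglecg*, an inhibitory lectin gene chosen after its values were seen and with a mean TPM under 10, was at 4.88 TPM in WT against 11.5 TPM in *Cd300a-/-* (1.09, 0.81 to 1.38).

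The NF-κB subunits and inhibitors were higher in 2 of 18 tested, with a median of 0.29, and 18 of 18 had a ratio above 0 (17 when centred on the median or scaled by library totals), where 56.1% of all genes tested did. *Ikbke*, a kinase that acts upstream of interferon and NF-κB signals, was at 29.6 TPM in WT against 47.1 TPM in *Cd300a-/-* (0.65, 0.53 to 0.77). *Traf1*, an adaptor of TNF family receptors that NF-κB itself induces, was at 39.4 TPM in WT against 60.7 TPM in *Cd300a-/-* (0.61, 0.51 to 0.71). *Nfkbia*, the inhibitor IκBα and most abundant of the list, was at 3209.8 TPM in WT against 3558 TPM in *Cd300a-/-* (0.15, 0.13 to 0.17). None of 26 AP-1 and immediate early genes or of 18 JAK, STAT and SOCS genes passed, with medians of 0.17 and 0.21, and 17 of the latter 18 were above 0 (15 with each of the other scalings).

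Of 15 proinflammatory cytokine genes tested, 2 were higher and none lower, beside 3.43% and 3.7% of all genes, with a median of 0.13. *Il1a*, an alarm cytokine of the IL-1 receptor, was at 278 TPM in WT against 441 TPM in *Cd300a-/-* SiglecF hi cells, and at 68.7 and 89.2 TPM in the SiglecF lo libraries (0.66, 0.61 to 0.72). *Il1rn*, the antagonist of that same receptor, was at 833 TPM in WT against 1209 TPM in *Cd300a-/-*, and at 621 and 601 TPM in the SiglecF lo libraries (0.54, 0.51 to 0.56). For both genes the SiglecF hi libraries were above the SiglecF lo libraries. *Il1b*, the other agonist and the most abundant gene of the list, did not pass, at 9987 TPM in WT against 12137 TPM in *Cd300a-/-* (0.28, 0.27 to 0.29). *Il1r2*, the decoy receptor of the pathway, was at 2219 TPM in WT against 2889.7 TPM in *Cd300a-/-* (0.38, 0.36 to 0.40).

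Among 19 chemokine genes tested, 1 was higher and 2 were lower (3 when centred on the median), beside 3.43% and 3.7% of all genes, with a median of -0.02. *Ccl5*, which attracts T cells and monocytes, rested on 57 counts in WT and 96 in *Cd300a-/-*, which is 12.2 and 22.97 TPM (0.86, 0.41 to 1.32). *Cxcl1*, a ligand of CXCR2, was lower at 552 TPM in WT against 372 TPM in *Cd300a-/-*, and at 330.0 and 140.3 TPM in SiglecF lo neutrophils (-0.57, -0.63 to -0.50). *Cxcl5*, another CXCR2 ligand made mainly by stromal and epithelial cells, was lower at 30.8 TPM in WT against 19.9 TPM in *Cd300a-/-*, and at 26.8 and 4.03 TPM in SiglecF lo neutrophils (-0.61, -0.83 to -0.39). The ligand of that receptor with the highest mRNA level, *Cxcl2*, did not pass, with 4829 TPM in WT against 5222 TPM in *Cd300a-/-* (0.11, 0.10 to 0.13). Of the CXCR2 ligands tested, *Cxcl3* and *Ppbp* did not pass either, with ratios of -0.02 and 0.24; these 2 were chosen after their values were seen.

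Of 42 interferon-stimulated genes tested, 4 were higher and none lower, beside 3.43% and 3.7% of all genes. A ratio above 0 was found for 35 of the 42 (32 when centred on the median), against 56.1% of all genes tested, and the median was 0.18, against -0.42 with 20 lower in SiglecF lo neutrophils. *Slfn4*, a myeloid schlafen gene, was at 592 TPM in WT against 930.0 TPM in *Cd300a-/-* SiglecF hi cells, and at 822 and 1440.3 TPM in SiglecF lo neutrophils (0.65, 0.63 to 0.68). *Oas2*, which senses double-stranded RNA, was at 37.5 TPM in WT against 58.3 TPM in *Cd300a-/-*, and at 33.5 and 52.2 TPM in SiglecF lo neutrophils (0.62, 0.52 to 0.72). These 2 were higher with *Cd300a* loss in both subsets. *Ifit2*, an inhibitor of viral translation, was at 45.2 TPM in WT against 66.5 TPM in *Cd300a-/-* (0.55, 0.45 to 0.64) and at 41.3 and 19.4 TPM in SiglecF lo neutrophils, where it was lower. The near-identical copy *Ifit3b*, whose value is uncertain, was at 52.6 TPM in WT against 75.6 TPM in *Cd300a-/-* (0.51, 0.39 to 0.64) and was under 0.5 with the other scalings, which leaves 3 genes. *Irf7*, the transcription factor that amplifies the interferon response, was at 212 TPM in WT against 295 TPM in *Cd300a-/-* (0.47, 0.42 to 0.53) and was chosen after its values were seen.

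The motif GAAA, any 2 bases and GAAA, the core of the interferon-stimulated response element, was in 17 of 32 promoters of these genes in the table (53.1%). It was in 6.99% of promoters of higher genes, 2.36% of those of lower genes and 3.73% of those of all genes tested. TTCNNNGAA, bound by STAT factors, was in 9.14%, 6.13% and 6.66%, and the κB motif of GGG, any 2 bases and TTTCC in 1.08%, 1.42% and 1.82%. Each was searched on both strands, and the shares are descriptions of letters in the windows. Of 12 interferon-inducible GTPase genes tested 1 was higher, beside 3.43% of all genes tested. It was *Tgtp2*, at 10.1 TPM in WT against 18.5 TPM in *Cd300a-/-* (0.82, 0.60 to 1.03). Its near-identical neighbour *Tgtp1*, chosen after its values were seen, went from 4.91 TPM in WT to 1.47 TPM in *Cd300a-/-* under the filter, so the division of reads between the copies is uncertain.

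Of 28 genes that mark SiglecF hi neutrophils, 1 was lower and none higher, with a median of 0.12. Among all genes tested 3.7% were lower and 3.43% higher. The lower gene was *Spp1*, which encodes the matrix glycoprotein osteopontin. *Spp1* was at 4111 TPM in WT against 2815 TPM in *Cd300a-/-* SiglecF hi cells, and at 1349 and 884 TPM in the SiglecF lo libraries (-0.55, -0.57 to -0.53). It was the most abundant of the 263 lower genes, and *Cd300a-/-* was under WT in both subsets. *Fabp5*, a fatty acid carrier, was at 1293 TPM in WT against 736 TPM in *Cd300a-/-*, and at 344 and 253 TPM in the SiglecF lo libraries (-0.81, -0.86 to -0.77). *Lgals1*, the lectin galectin-1, was at 1215 TPM in WT against 813 TPM in *Cd300a-/-*, and at 720.3 and 359 TPM (-0.58, -0.63 to -0.53). These genes, too, were lowest in the *Cd300a-/-* SiglecF lo library and highest in the WT SiglecF hi library. *Crip1*, a small LIM protein gene, was lower at 496 TPM in WT against 302 TPM in *Cd300a-/-* (-0.72, -0.80 to -0.63), and the metal-binding *Mt2* at 397 TPM in WT against 258 TPM in *Cd300a-/-* (-0.62, -0.72 to -0.51). Other abundant genes rose, namely *Gpr132*, a lipid-sensing receptor of phagocytes, at 153 TPM in WT against 218 TPM in *Cd300a-/-* (0.51, 0.45 to 0.57; under 0.5 with the other scalings), and *Marchf7*, a ubiquitin ligase, at 185 TPM in WT against 269 TPM in *Cd300a-/-* (0.54, 0.49 to 0.59).

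Fibroblast genes included falls and no rise. Of 25 genes written 22 were tested, 8 were lower and none higher, 2 had a ratio above 0 (1 with the other scalings) where 56.1% of all genes tested did, and the median was -0.38. The whole list summed to 4319 TPM in WT against 3317 TPM in *Cd300a-/-* SiglecF hi cells, beside 2664 and 2175 TPM in the SiglecF lo libraries. Its most abundant gene, the calcification inhibitor *Mgp*, was at 673 TPM in WT against 630.1 TPM in *Cd300a-/-* (-0.09, -0.16 to -0.03), and no gene of the list had 0 counts in both SiglecF hi libraries. *Col3a1*, a fibrillar collagen, was at 572 TPM in WT against 364 TPM in *Cd300a-/-*, and at 240.1 and 215 TPM in SiglecF lo neutrophils (-0.65, -0.68 to -0.62). *Col1a2*, a chain of type I collagen, was at 308 TPM in WT against 191 TPM in *Cd300a-/-*, and at 151 and 147 TPM (-0.69, -0.73 to -0.65). For both collagens WT SiglecF hi was the highest of the 4 libraries. *Lox*, which crosslinks collagen, had the largest fall of the list at 21.7 TPM in WT against 12.1 TPM in *Cd300a-/-* (-0.79, -0.94 to -0.64), and *Col5a2* (-0.67) and *Col6a3* (-0.66) were lower too. The remaining lower members, *Col1a1* (-0.64), *Col5a1* (-0.65) and *Loxl1* (-0.56), were named after their values were seen. Beyond the list, the Wnt modulator *Sfrp2* was lower at 32.2 TPM in WT against 14.05 TPM in *Cd300a-/-* (-1.14, -1.36 to -0.93), and the smooth muscle light chain *Myl9* at 31.3 TPM in WT against 11.4 TPM in *Cd300a-/-* (-1.38, -1.69 to -1.08). Fibroblasts are not CD45.2+CD11b+Ly6G+ cells, and the part of these mRNAs in the result was not tested.

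Macrophage genes had a median of -0.20, with 2 of 27 higher and 1 lower (2 when centred on the median), beside 3.43% and 3.7% of all genes tested. They summed to 26173 TPM in WT against 23323 TPM in *Cd300a-/-* SiglecF hi cells, beside 10934 and 8785 TPM in the SiglecF lo libraries, none was at 0 counts in both SiglecF hi libraries, and the most abundant, the lipoprotein gene *Apoe*, was at 8313 TPM in WT against 8107 TPM in *Cd300a-/-* (-0.04, -0.05 to -0.03). *Gpnmb*, a glycoprotein of lipid-laden phagocytes, was lower at 482 TPM in WT against 299 TPM in *Cd300a-/-* (-0.69, -0.72 to -0.65). *Cd163*, the scavenger receptor for haemoglobin, was higher at 20.5 TPM in WT against 38.2 TPM in *Cd300a-/-* (0.86, 0.74 to 0.99). *Lyve1*, a hyaluronan receptor that marks resident cardiac macrophages beside lymphatic vessels, was higher at 9.41 TPM in WT against 17.2 TPM in *Cd300a-/-* (0.80, 0.59 to 1.02) and passed the filter with WT under 10 TPM. Of the 27 genes 21 had a ratio below 0, among them *Mrc1*, another gene of resident macrophages, at -0.07, and the part of macrophage mRNAs in the result was not tested. *Retnla*, a gene of alternatively activated macrophages outside the list, rested on 19 counts in WT and 99 in *Cd300a-/-*, which is 3.61 and 21.04 TPM (2.26, 1.66 to 2.86).

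Endothelial genes were higher in 3 of 14 tested, with a median of 0.38, where the SiglecF lo median was -1.12. The 3 were the receptor *Tie1* at 9.29 TPM in WT against 14.5 TPM in *Cd300a-/-* (0.59, 0.41 to 0.77), the adhesion molecule *Esam* at 9.91 TPM in WT against 15.4 TPM in *Cd300a-/-* (0.59, 0.35 to 0.82) and von Willebrand factor *Vwf* at 8.94 TPM in WT against 13.8 TPM in *Cd300a-/-* (0.58, 0.45 to 0.70). All 3 were under 10 TPM in WT, and none of the 11 members over 10 TPM in both libraries passed. The list of 22 summed to 843 TPM in WT against 1035 TPM in *Cd300a-/-* SiglecF hi cells, beside 1142 and 475 TPM in the SiglecF lo libraries, with none at 0 counts in both SiglecF hi libraries and the fatty acid carrier *Fabp4* as the most abundant at 259.8 TPM in WT against 349.8 TPM in *Cd300a-/-* (0.43). Their part in the result was not tested.

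Cardiomyocyte genes were higher in 2 of 9 tested, beside 3.43% of all genes, with a median of -0.02. Myoglobin, *Mb*, was at 12.98 TPM in WT against 31.2 TPM in *Cd300a-/-* (1.20, 0.95 to 1.46), and the ventricular light chain *Myl2* at 9.99 TPM in WT against 16.9 TPM in *Cd300a-/-* (0.71, 0.42 to 1.00), the latter with WT just under 10 TPM. The list of 21 summed to 275 TPM in WT against 302 TPM in *Cd300a-/-* SiglecF hi cells, beside 281 and 127 TPM in the SiglecF lo libraries, the most abundant gene was the mitochondrial carrier *Slc25a4* at 91.5 TPM in WT against 75.7 TPM in *Cd300a-/-* (-0.27), *Nppb* had 0 counts in both SiglecF hi libraries, and their part in the result was not tested. Of 15 platelet and erythroid genes 6 were tested and 1 was higher (1 also lower when centred on the median), the globin copy *Hbb-bt* at 46.5 TPM in WT against 81.1 TPM in *Cd300a-/-* (0.79, 0.58 to 1.00), whose reads may be shared with other globin genes. These 15 summed to 1774 TPM in WT against 1644 TPM in *Cd300a-/-* SiglecF hi cells, beside 1771 and 1025 TPM in the SiglecF lo libraries, led by the platelet chemokine *Pf4* at 867 TPM in WT against 627 TPM in *Cd300a-/-*, with *Gp1bb* and *Slc4a1* at 0 in both SiglecF hi libraries, and their part in the result was not tested.

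Eosinophils also carry Siglec-F. Their genes *Epx* and *Gata1* had 0 counts in both SiglecF hi libraries, and 5 of 7 eosinophil markers were under 1 TPM in both. Of 13 eosinophil genes 2 were tested and none passed. The 13 summed to 137 TPM in WT against 142 TPM in *Cd300a-/-* SiglecF hi cells, beside 183 and 107 TPM in the SiglecF lo libraries, led by the ribonuclease *Ear2* at 109.8 TPM in WT against 113 TPM in *Cd300a-/-*. None of 20 lymphocyte genes reached the filter, with sums of 19.2 TPM in WT against 32.7 TPM in *Cd300a-/-* SiglecF hi cells, beside 17.9 and 20.2 TPM in the SiglecF lo libraries, *Cd79b* as the most abundant, and *Cd3e*, *Trac*, *Ighm*, *Igkc* and *Prf1* at 0 in both SiglecF hi libraries. Of 10 mast cell and basophil genes 1 was tested, the histidine decarboxylase *Hdc*, which neutrophils express too, at 859.8 TPM in WT against 1103 TPM in *Cd300a-/-* (0.36, 0.33 to 0.39). The other mast cell and basophil genes include *Cpa3*, *Fcer1a*, *Mcpt4*, *Mcpt8*, *Cma1* and *Tpsb2* at 0 in both SiglecF hi libraries. These 10 summed to 862 TPM in WT against 1107 TPM in *Cd300a-/-* SiglecF hi cells, beside 1516 and 2302 TPM in the SiglecF lo libraries. The part of any of these cell types in the result was not tested.

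**Figure D3:**
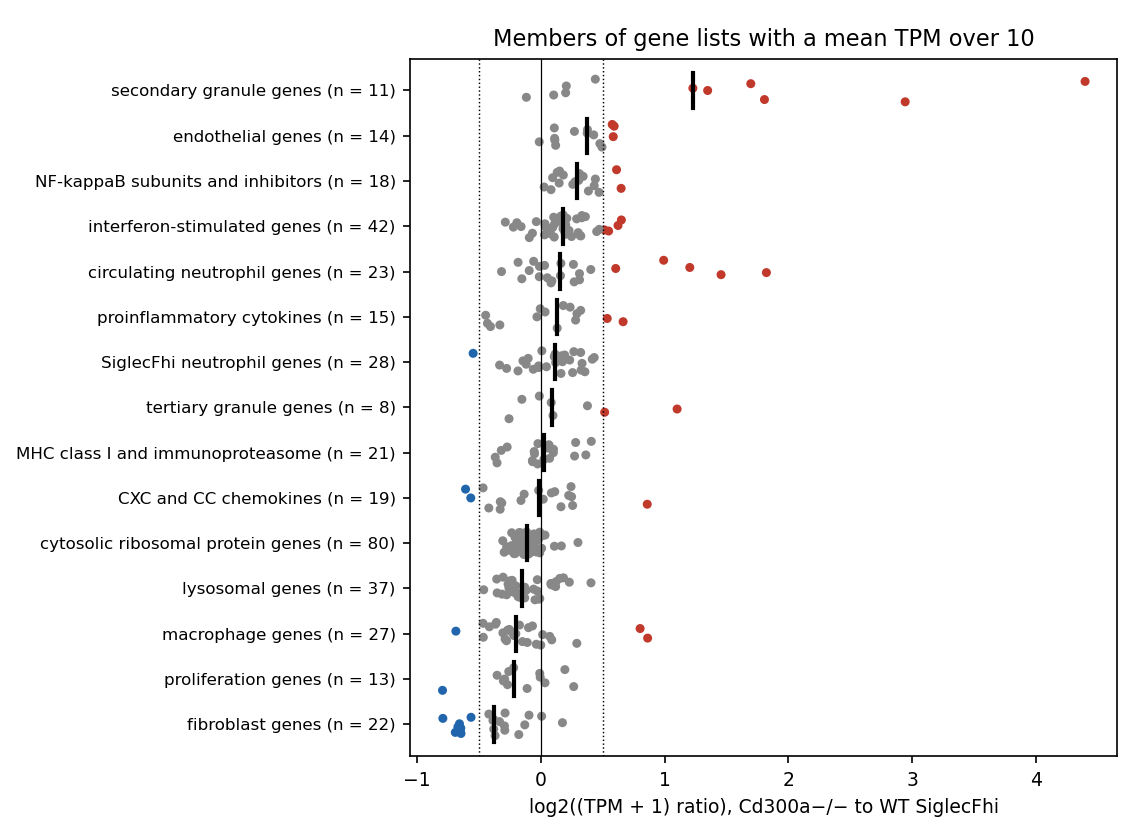
Each point is a member of 1 of 15 gene lists with a mean TPM over 10, placed by its log2((TPM + 1) ratio) of *Cd300a-/-* to WT SiglecF hi neutrophils, red when higher and blue when lower than the dotted lines at 0.5; black bars are list medians. The secondary granule median lies at 1.23 (0.44 where both libraries are over 10 TPM) and the fibroblast median at -0.38, while none of 80 ribosomal protein genes passed.

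Matrix-degrading enzymes and their inhibitors included genes that rose and genes that fell. Of 21 tested 2 were higher (*Mmp8* and *Mmp25*, 1 under the other scalings), 3 were lower, and the median was -0.08. *Timp1*, an inhibitor of matrix metalloproteinases, was lower at 86.5 TPM in WT against 56.2 TPM in *Cd300a-/-* (-0.61, -0.79 to -0.43). *Mmp12*, the macrophage elastase, was lower at 68.5 TPM in WT against 46.9 TPM in *Cd300a-/-* (-0.54, -0.63 to -0.45). *Mmp23*, chosen after its values were seen, was at 14.6 TPM in WT against 10.03 TPM in *Cd300a-/-* (-0.50, -0.82 to -0.19). The granule proteases *Mmp9* and *Adam8*, the latter chosen after its values were seen, did not pass, with ratios of 0.38 and -0.26. *Ctss*, the most abundant of the list, encodes a lysosomal protease and was at 3974 TPM in WT against 3417 TPM in *Cd300a-/-* (-0.22, -0.24 to -0.20). Of 19 integrins, selectin and adhesion ligands 1 was higher, *Itgb2l*, which is also counted among the secondary granule genes. It passed the filter with WT under 10 TPM, and none of the 18 members over 10 TPM in both libraries passed 0.5. *Icam1*, the most abundant, was at 716 TPM in WT against 955 TPM in *Cd300a-/-* (0.42, 0.39 to 0.45). Of 17 angiogenic factors 1 was higher, the growth factor *Hbegf*, at 9.45 TPM in WT against 14.4 TPM in *Cd300a-/-* (0.56, 0.31 to 0.80), with WT under 10 TPM. The counts of adhesion genes and angiogenic factors stand beside 3.43% higher among all genes tested. No gene of 16 in the TGF-β pathway or of 19 in efferocytosis, the uptake of dying cells, passed, with medians of 0.11 and -0.07.

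Iron and heme genes moved in both directions, with 3 of 19 higher and 2 lower. The higher genes were *Ltf*, *Lcn2* and *Cd163*, whose proteins bind iron, siderophores and haemoglobin. *Aco1*, which encodes the iron regulatory protein IRP1, was lower at 23.5 TPM in WT against 12.4 TPM in *Cd300a-/-* (-0.87, -1.03 to -0.70). *Steap3*, an endosomal ferrireductase chosen after its values were seen, was lower at 15.6 TPM in WT against 10.4 TPM in *Cd300a-/-* (-0.54, -0.69 to -0.38). *Ftl1*, the ferritin light chain and the most abundant gene of both SiglecF hi libraries, was at 21556 TPM in WT against 17118 TPM in *Cd300a-/-* (-0.33, -0.34 to -0.32), within the threshold. In some other lists a single member passed, where 7.12% of all genes tested did. *Gclc*, the rate-limiting enzyme of glutathione synthesis, was the 1 higher of 21 antioxidant and NRF2 genes (1 more was lower under the other scalings), at 14.2 TPM in WT against 22.3 TPM in *Cd300a-/-* (0.62, 0.45 to 0.79). *Fdps*, of the mevalonate pathway, was the 1 lower of 17 cholesterol genes, at 21.1 TPM in WT against 11.2 TPM in *Cd300a-/-* (-0.85, -1.11 to -0.59). *Bad*, a promoter of cell death, was the 1 lower of 12 BCL2 family genes, at 17.6 TPM in WT against 11.9 TPM in *Cd300a-/-* (-0.53, -0.75 to -0.30).

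Proliferation genes, of which mature neutrophils make little, had a median of -0.22, and 1 of 13 tested was lower, beside 3.7% of all genes. That was the mitotic cyclin *Ccnb2* at 20.8 TPM in WT against 11.6 TPM in *Cd300a-/-* (-0.79, -1.07 to -0.52). Under the filter, *Ccna2* was at 12.9 TPM in WT against 5.34 TPM in *Cd300a-/-* (-1.13, -1.37 to -0.90) and *Cdc20* at 11.1 TPM in WT against 5.25 TPM in *Cd300a-/-* (-0.95, -1.30 to -0.60), both cell cycle genes chosen after their values were seen.

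Of 52 gene lists, 51 had a member tested, and 25 of these, with 506 members tested in all, had none past 0.5 (1 oxidative phosphorylation gene was lower when centred on the median). Their medians ran from -0.15 for 37 lysosomal genes to 0.36 for the single mast cell and basophil gene. Ribosomal protein genes had a median of -0.11 over 80 genes, 8 of them above 0 (3 when centred on the median), and -0.54 with 48 lower in SiglecF lo neutrophils. Oxidative phosphorylation genes had a median of -0.06 over 76 genes, and glycolysis genes -0.01 over 18. For the genes of the mitochondrial genome the median was -0.07 over 13. None passed among 9 NADPH oxidase genes (0.10), which make the oxidative burst, 12 genes of lipid mediator synthesis (-0.01), 16 heat shock genes (-0.11) or 17 hypoxia response genes (0.14). The same held for 21 genes of MHC class I and the immunoproteasome (0.03), 33 constitutive proteasome genes (-0.05), 6 MHC class II genes and 2 sex-linked genes (0.08).

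Genes around *Cd300a* also changed. The Cd300 receptors, a family of activating and inhibitory immunoglobulin receptors, lie on chromosome 11, all but *Cd300lg* close to *Cd300a*, and 9 of 12 were tested, of which 2 were higher and 2, *Cd300a* among them, lower. *Cd300ld*, an activating member, was lower at 369 TPM in WT against 193 TPM in *Cd300a-/-* SiglecF hi cells, and at 503 and 166 TPM in the SiglecF lo libraries (-0.93, -0.99 to -0.88). *Cd300ld3* was at 209 TPM in WT against 302 TPM in *Cd300a-/-*, and at 138 and 268 TPM in SiglecF lo neutrophils (0.53, 0.43 to 0.62), and it fell under 0.5 with every other scaling but that of DESeq2. Both genes had the same direction in the SiglecF lo libraries. *Cd300ld5* had 52 counts in WT and 245 in *Cd300a-/-*, which is 6.96 and 36.6 TPM (2.24, 1.85 to 2.64), and in SiglecF lo neutrophils it was at 0 in WT and at 46.6 TPM without *Cd300a*. Against a floor of 3 counts the latter is at least 68.0-fold higher. *Cd300ld4*, under the filter, had 113 counts in WT and 0 in *Cd300a-/-* SiglecF hi neutrophils, at least 33.7-fold lower, and it was at least 25.4-fold lower in SiglecF lo neutrophils. *Cd300ld2*, also under the filter, had 11 and 101 counts (2.67, 2.06 to 3.22).

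Those copies of *Cd300ld* are near-identical, so the share of reads given to each is uncertain. Each had a SiglecF lo ratio of the same sign, and the part of read assignment or of a strain difference beside the targeted locus was not tested in either subset. The more distinct members did not pass: *Cd300lf*, an inhibitory receptor, was at 328 TPM in WT against 385 TPM in *Cd300a-/-* (0.23, 0.18 to 0.28), and the activating *Cd300lb* at 98.9 TPM in WT against 97.03 TPM in *Cd300a-/-* (-0.03, -0.11 to 0.05). *Cd300c2*, the most abundant of the family, was at 462 TPM in WT against 432 TPM in *Cd300a-/-* (-0.10, -0.16 to -0.04), *Cd300e* at 18.7 TPM in WT against 25.4 TPM in *Cd300a-/-* (0.42), and *Cd300lg* at 12.9 TPM in WT against 15.3 TPM in *Cd300a-/-* (0.22). *Cd300c* had 7 and 4 counts. The fall of the target thus stood beside rises and falls of its relatives.

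Within 5 Mb of *Cd300a*, 12 of 71 genes tested were past 0.5 (16.9%), and 8 of 63 (12.7%) with the Cd300 family left out, against 7.12% of all genes. Higher were the potassium channel *Kcnj2* at 13.9 TPM in WT against 20.1 TPM in *Cd300a-/-* (0.50, under 0.5 with the other scalings), *Armc7* at 26.2 TPM in WT against 41.1 TPM in *Cd300a-/-* (0.63) and the trafficking adaptor *Gga3* at 16.3 TPM in WT against 24.7 TPM in *Cd300a-/-* (0.57). Lower were *Tmem104* at 40.6 TPM in WT against 25.8 TPM in *Cd300a-/-* (-0.64), galactokinase *Galk1* at 23.6 TPM in WT against 15.03 TPM in *Cd300a-/-* (-0.62) and cytoglobin *Cygb*, a globin of fibroblasts, at 46.8 TPM in WT against 30.7 TPM in *Cd300a-/-* (-0.59). *Mettl23* (-0.70) and *Mfsd11* (-0.55) were lower too. In SiglecF lo neutrophils *Tmem104*, *Cygb*, *Mettl23* and *Mfsd11* were lower as well, with ratios of -1.39, -0.99, -1.22 and -0.69. The other 4 did not pass there, with ratios of 0.01 for *Galk1*, -0.08 for *Kcnj2*, 0.17 for *Armc7* and 0.34 for *Gga3*. The part of a strain difference in these neighbours was not tested. Chromosome 11 as a whole had 61 of 640 tested genes past 0.5 (9.53%), with the Cd300 family counted in. On that count it had the highest share of any chromosome, followed by chromosome 13 with 9.24%.

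**Figure D4:**
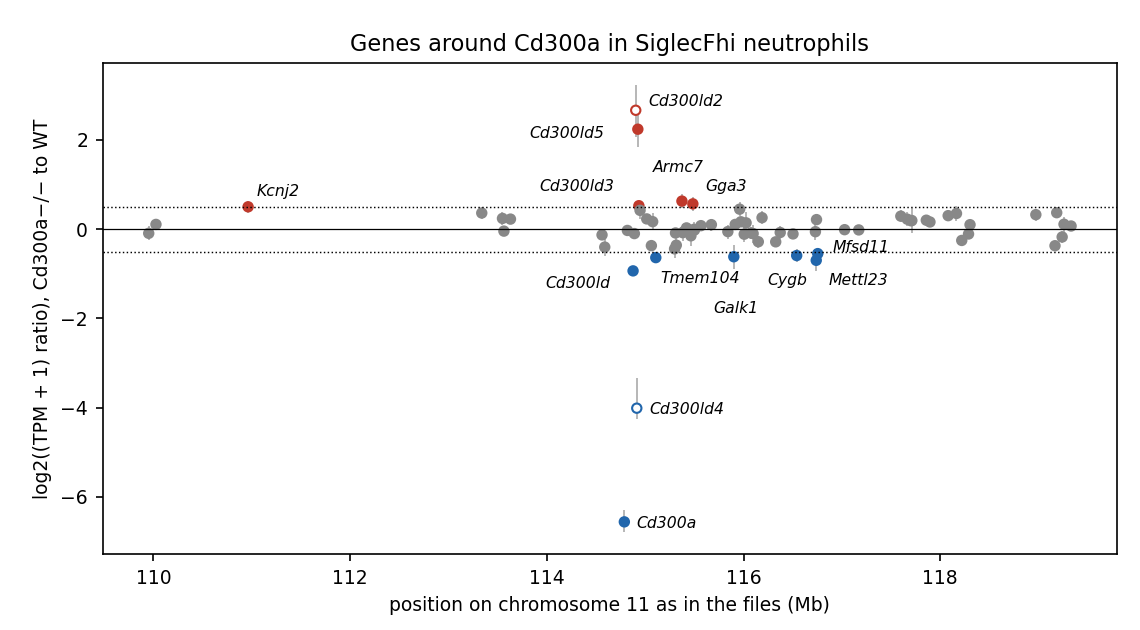
Genes within 5 Mb of *Cd300a* on chromosome 11, by position in Mb (GRCm39) and log2((TPM + 1) ratio) of *Cd300a-/-* to WT SiglecF hi neutrophils, with 95% counting intervals as bars, filled points for genes with a mean TPM over 10 and open points for those under it. *Cd300a* is lowest at -6.56, and of its family the filled points *Cd300ld5* at 2.24, *Cd300ld3* at 0.53 and *Cd300ld* at -0.93 and the open points *Cd300ld2* at 2.67 and *Cd300ld4* at -4.01 are past the dotted lines at 0.5. The *Cd300ld4* value takes the *Cd300a-/-* library, at 0 counts, as 0 TPM.

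The second largest fall of a gene tested was in another family of paired receptors, on chromosome 7. *Pira1*, an activating immunoglobulin-like receptor that binds MHC class I, had 974 counts in WT and 1 in *Cd300a-/-* SiglecF hi neutrophils, which is 32.1 and 0.0368 TPM (-4.99, -5.10 to -4.76), and 23.1 and 2.40 TPM in SiglecF lo neutrophils. Its relatives were chosen after their values were seen. *Pira13* was at 4.91 TPM in WT against 0.817 TPM in *Cd300a-/-* (-1.70, -2.11 to -1.24), *Pira2* at 56.5 TPM in WT against 89.3 TPM in *Cd300a-/-* (0.65, 0.56 to 0.74) and *Pira12* at 67.05 TPM in WT against 84.1 TPM in *Cd300a-/-* (0.32, 0.21 to 0.43). Copies of *Pira* are near-identical and differ between strains, so that which copy a read comes from is uncertain. *Pirb*, the single inhibitory member, was within the threshold at 222 TPM in WT against 182 TPM in *Cd300a-/-* (-0.29, -0.34 to -0.24).

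Other large changes fell outside the lists. Near-identical copies and pseudogenes, whose values are uncertain, were among them, namely the ribosomal pseudogene *Rpl9-ps6* at 7.66 TPM in WT against 43.1 TPM in *Cd300a-/-* (2.35), the histone copy *H4c18* at 19.1 TPM in WT against 1.48 TPM in *Cd300a-/-* (-3.02) and the retrotransposon-derived *Rtl8a* at 26.4 TPM in WT against 2.66 TPM in *Cd300a-/-* (-2.90). *Nnt_1*, an entry of the nucleotide transhydrogenase gene, was higher at 6.59 TPM in WT against 18.7 TPM in *Cd300a-/-* (1.38). Of the other genes, *Car2*, the enzyme carbonic anhydrase 2, was higher at 8.15 TPM in WT against 22.6 TPM in *Cd300a-/-* (1.37, 1.10 to 1.64), and *Wdr73* at 5.07 TPM in WT against 15.2 TPM in *Cd300a-/-* (1.42, 1.12 to 1.72). *Coq7*, an enzyme of ubiquinone synthesis, was lower at 18.7 TPM in WT against 5.74 TPM in *Cd300a-/-* (-1.55, -1.89 to -1.21), and also lower in SiglecF lo neutrophils (-1.57). *Gpx7*, a peroxidase of the endoplasmic reticulum, was lower at 22.9 TPM in WT against 8.89 TPM in *Cd300a-/-* (-1.27, -1.60 to -0.95), and *Ift27*, of the transport machinery of cilia, at 16.1 TPM in WT against 6.04 TPM in *Cd300a-/-* (-1.28, -1.68 to -0.89). Further falls were those of *Eva1b* (-1.23), *Cby1* (-1.21), *Cisd3* (-1.19), the neuropeptide gene *Nmb* (-1.19) and *Zfp637* (-1.13). Apart from *Nmb*, every gene of this paragraph was at or under 10 TPM in 1 of the SiglecF hi libraries and so passed the filter only through the library where it was high.

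Set beside the SiglecF lo libraries, which share no library with the SiglecF hi comparison, part of the changes had the same direction. In SiglecF lo neutrophils 2642 of the same 7116 genes (37.1%) were past 0.5, 1184 higher (16.6%) and 1458 lower (20.5%), at shallower depth. Of the 244 genes higher in SiglecF hi neutrophils, 85 (34.8%) were also higher in SiglecF lo neutrophils and 50 (20.5%) were lower there. Of the 263 lower genes, 117 (44.5%) were also lower and 30 (11.4%) were higher. Among the named genes the granule genes *Ngp*, *Cd177*, *Ltf*, *Lcn2* and *Itgb2l* were higher in both subsets, and *Spp1*, *Lgals1* and *Gpnmb* lower in both. The collagens *Col3a1* and *Col1a2* were lower in SiglecF hi neutrophils, with SiglecF lo ratios of -0.16 and -0.04. Differences between the 2 subsets in these ratios were not tested.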

How the data were processed

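Poly(A)-selected RNA of sorted cardiac neutrophils was prepared with NEBNext Ultra II and sequenced paired-end on a NextSeq, and CLC Genomics Workbench gave the values. Per the authors' processing notes the genome build is GRCm39. For each of 25655 genes the authors deposited counts, which are whole numbers without normalization. The authors also deposited RPKM, which divides counts by gene length and library size. TPM, as the authors deposited it, has a total of 1000000 per library. In the deposited signal, headed CPM, counts scaled to library size are multiplied by 1 factor per library. Counts and TPM were used, and RPKM and that signal entered no result. Whether reads or read pairs were counted is not stated.

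Differences are log2((TPM + 1) ratio) of *Cd300a-/-* to WT, where the 2 libraries averaged over 10 TPM, called past 0.5. The 95% intervals combine exact (Garwood) Poisson limits of both counts by the square-and-add (MOVER) method. For folds given as at least a value, a library at 0 counts was set to a floor of 3 counts. Ratios and their differences took such a library as 0 TPM, so that they depend on the pseudocount of 1 TPM. No test between genotypes was run. Gene lists (52) were described by counts and medians. The members and lists were chosen with earlier results of these data known. Named genes are the Cd300 family and sorting markers, the 15 largest rises and falls, the 10 most abundant genes past 0.5 in each direction, up to 4 members past 0.5 and the most abundant member of each list, genes past 0.5 within 5 Mb of *Cd300a*, up to 5 genes in each direction opposed between subsets, and genes at the filter's edge. Alternatives were pseudocounts of 0.1 and 5 TPM, other filters, thresholds and scalings (TMM in edgeR 4.0.16, DESeq2 1.42.0, the median ratio, library totals). Promoters were matched to RefSeq (GRCm38.p6) by symbol for 5763 of the 7116 genes tested (81%), taking the first window of a gene. The calculations were tested on simulated data. Python 3.11.15, numpy 2.4.6, pandas 2.3.3, scipy 1.17.1, matplotlib 3.10.9 and R 4.3.3 were used.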

Additional observations from a re-analysis of the deposited data

Results flagged for a closer look

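Some named genes were past 0.5 in opposite directions in the subsets, so that the ratio of *Cd300a-/-* to WT in SiglecF hi neutrophils minus that in SiglecF lo neutrophils was large; each ratio rests on 1 library a side, and none of these differences was tested. Of 507 genes past 0.5 in SiglecF hi neutrophils, 80 were opposed in this way. *Mb* was at 12.98 TPM in WT against 31.2 TPM in *Cd300a-/-* SiglecF hi cells and at 7.96 and 1.30 TPM in the SiglecF lo libraries, a difference of 3.17. *Esam* differed by 2.46 and *Tie1* by 1.86, both endothelial genes that were lower with *Cd300a* loss in SiglecF lo neutrophils. *Ctla2a*, a protease inhibitor gene at 15.3 TPM in WT against 22.6 TPM in *Cd300a-/-* and at 26.2 and 3.37 TPM in SiglecF lo neutrophils, differed by 3.17.

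Lower in SiglecF hi and higher in SiglecF lo neutrophils were *Mmp12*, *Tnc* and *Sfrp2*. *Mmp12* went from 1.09 TPM in WT to 15.6 TPM in *Cd300a-/-* SiglecF lo neutrophils, a difference of -3.52. *Tnc*, the matrix glycoprotein tenascin-C, was at 17.7 TPM in WT against 8.55 TPM in *Cd300a-/-* SiglecF hi cells and at 4.48 and 24.4 TPM in SiglecF lo neutrophils, a difference of -3.18. *Sfrp2*, at 10.8 and 23.7 TPM in SiglecF lo neutrophils, differed by -2.21.

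Signalling genes with a rise in SiglecF hi and a fall in SiglecF lo neutrophils were *Ccl5* with a difference of 1.86, *Ifit2* with 1.60, the near-identical copy *Ifit3b* with 1.34 and *Hbegf* with 1.15.

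The rest had a library at or near 0 counts, or are copies of other genes. For *Gm29094*, *Tesc*, *Car2* and *Psme2b* the fold uses the floor of 3 counts. The difference instead takes the library at 0 counts as 0 TPM, so it depends on the pseudocount of 1 TPM and is not exact. *Gm29094*, a predicted gene, was at 7.38 TPM in WT against 27.99 TPM in *Cd300a-/-* SiglecF hi neutrophils, and in SiglecF lo neutrophils it was at least 23.2-fold lower in *Cd300a-/-*, a difference of 6.07. It overlaps *Bcl2a1b* on the same strand, a gene at 2345 TPM in WT against 2448 TPM in *Cd300a-/-* SiglecF hi neutrophils. How reads were divided between these genes was not tested. *Tesc*, a calcium-binding protein gene at 9.35 TPM in WT against 15.5 TPM in *Cd300a-/-*, was at least 24.6-fold lower in SiglecF lo neutrophils (4.44), and *Car2* at least 10.3-fold lower there (3.33). *Psme2b*, a proteasome activator copy at 30.8 TPM in WT against 16.1 TPM in *Cd300a-/-*, was at least 21.8-fold higher in SiglecF lo neutrophils (-4.91). *Rtl8a* differed by -4.97, with 2.44 and 13.4 TPM in SiglecF lo neutrophils, and *Smim26* by -3.09, with 1.65 and 11.6 TPM.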

How the results depend on the processing

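No paired analysis was possible because each group has 1 library and the mice of a pool are not separated. No ratio of a called gene changed direction under any alternative run, but none could. A pseudocount keeps the sign of a ratio, and filters and thresholds leave the ratio as it is. The scalings shifted ratios by far less than 0.5. The count of 507 genes past 0.5 became 311 (138 higher, 173 lower) with a pseudocount of 5 TPM, where *Cd300a* was at -4.87, and *Cd300a* was at -7.60 with a pseudocount of 0.1. It became 1800 (855 higher, 945 lower) of 11633 genes with a mean TPM over 1, and 2674 (1249 higher, 1425 lower) of 15887 genes without a filter, since more genes are tested there. It was 45 (23 higher, 22 lower) with a threshold of 1, and 180 (87 higher, 93 lower) with the interval wholly beyond 0.5, since both are stricter. With the other filters it lay from 367 to 631, and with TMM, DESeq2, median or library-total scaling from 497 to 499, where higher genes fell from 244 to between 194 and 207. Scaling moved 21 to 36 of 161 named gene ratios beyond their counting interval. Where other alternatives moved a value, the cause was not tested. Depth gave a median interval half-width of 0.126, and of 0.191 between the SiglecF lo libraries, which leaves single calls near 0.5 uncertain.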
